A study of Saccharomyces cerevisiae with 95 samples.

Results

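Clotrimazole, an azole antifungal, was added to 10 µM to a culture of the budding yeast Saccharomyces cerevisiae that grew at steady state in a histidine-limited chemostat, and the mRNA of the culture was followed on DNA microarrays for 30.8 h. The course comprised all arrays titled with this perturbation, which were 10 of the 95 arrays of the series: 2 taken before the onset, at -1.58 and -0.48 h, and 8 taken after it, at 0.25, 1.2, 2.87, 5.03, 9.78, 14.18, 26.45 and 30.8 h, with 1 array at each time. The other courses of the same kind of chemostat served as the comparison and comprised the reducing agent DTT at 6 mM (7 arrays), a heat shock of 37 degrees for 5 h (10 arrays), NaCl at 0.31 M (8 arrays) and extra histidine to 4 mg/l (8 arrays). The paper describes the perturbations as pulses that were washed out over about 5 h. How much drug was left at the later times is not known here, and the DTT, NaCl and histidine pulses washed out likewise.

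The labels give 1 perturbation course, in a culture fed with 2 mg/l histidine, so a difference between times has no replicate culture behind it. The drug was dissolved in DMSO and no array of a culture given the solvent alone was analysed here, so the drug and its solvent cannot be told apart. The labels name the strain as haploid wild type BY4741 for every array, whereas the study's methods name the strain W303-1 bar1::P_ADH1-CFP-KANMX for histidine limitation. The source field of both arrays before the onset mentions NaCl, while their titles and growth protocol name clotrimazole, which was followed here. The source field of the heat shock arrays before the onset likewise names glucose limitation, against their titles. Each array gave, for 6132 open reading frames (ORFs), the log2 ratio of the chemostat RNA (Cy5) to RNA of a late-log batch culture in histidine-limited medium (Cy3). Below, the change of a gene at a given time is its log2 ratio on that array minus the mean of its ratios on the 2 arrays before the onset, so that the batch culture cancels and 1 unit is a doubling or halving. Ratios give no level of a gene, so genes were compared only by their changes.

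Ergosterol is the main sterol of yeast membranes. It is made from acetyl-CoA through the mevalonate pathway, squalene and lanosterol, and azoles inhibit Erg11, the lanosterol demethylase, a heme enzyme whose reaction also needs oxygen. Shortage of sterol is known to activate the transcription factors Upc2 and Ecm22, which act on many ERG genes, on sterol uptake and on genes of anaerobic growth. Foreign compounds such as azoles also act on the pleiotropic drug resistance (Pdr) network, in which Pdr1 and Pdr3 drive membrane pumps such as Pdr5.

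The arrays at 2.87 and 9.78 h stood apart from their neighbours in time. Of 109 ORFs that lay more than 1 unit below the baseline at 2.87 h, 83 did so again at 9.78 h, and 34 of these 83 were within 0.5 units of the baseline at 1.2, 5.03 and 14.18 h. HAC1, which encodes the transcription factor of the unfolded protein response, stood at -0.06, -0.04, -3.56, 0.02, -3.41, 0.17, 0.08 and -0.19 at the 8 times in order. Genes far from HAC1 in function followed the same course, among them VAS1 (valyl-tRNA synthetase, -1.91 and -2.98 at 2.87 and 9.78 h), PFK2 (a phosphofructokinase subunit, -1.63 and -2.11) and EFT1 (translation elongation factor 2, -1.53 and -1.94). On these arrays the change declined with gene length across 5665 genes of known length (Spearman's rho -0.35 at 2.87 h and -0.32 at 9.78 h), against -0.14 to 0.12 on the 6 other arrays. The part of this feature in the results below was not tested, and the main counts that draw on these arrays are given with and without them.

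Windows of time were compared with the baseline with limma across all 6132 ORFs at a Benjamini-Hochberg adjusted p of 0.05. With 1 array per time, the error came from 3 pairs of repeat arrays of histidine-limited cultures at steady state (3 residual degrees of freedom), so the p-values measure the spread of repeat arrays of 1 culture and not that of cultures. At 0.25 h, 77 genes rose (1.26% of those tested) and 162 fell (2.64%), which was 3.9% in all. At 1.2 h none passed in either direction, with 488 at an unadjusted p under 0.05. At 2.87 h alone, 104 rose (1.7%) and 400 fell (6.52%), or 8.22% in all. Over 1.2 to 5.03 h, 13 rose (0.212%) and 24 fell (0.391%), or 0.603% in all. Over 9.78 and 14.18 h, 1132 rose (18.5%) and 1247 fell (20.3%), or 38.8% in all. Over 26.45 and 30.8 h, 976 rose (15.9%) and 1020 fell (16.6%), or 32.6% in all, so that a share of a gene list in the 2 late windows has to be read against these high backgrounds. Alone, the array at 9.78 h gave 1114 genes higher (18.2%) and 1181 lower (19.3%), or 37.4% in all, and that at 14.18 h gave 868 higher (14.2%) and 835 lower (13.6%), or 27.8% in all. Without the array at 2.87 h the early count was 6 in place of 37, and without the array at 9.78 h the count at 9 to 15 h was 1703 in place of 2379.

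The genes of the sterol path fell first and rose later. The path was taken as 24 genes, comprising 9 from acetyl-CoA to farnesyl diphosphate, 3 from there to lanosterol and 12 from lanosterol to ergosterol. At 0.25 h, 14 of the 24 fell and none rose, beside 2.64% of all ORFs that fell, with a median change of -0.90, against 0.00 over all ORFs. The median of the 24 was then 0.02 at 1.2 h, 0.03 at 2.87 h, 0.37 at 5.03 h, 0.48 at 9.78 h, 1.13 at 14.18 h, 0.68 at 26.45 h and 0.64 at 30.8 h. Over 1 to 5 h, 3 rose (ERG3, ERG28 and ERG5) and none fell, but none of the 3 held when either array before the onset was left out. At 9 to 15 h, 15 rose and none fell, beside 18.5% of all ORFs that rose, and at 26 to 31 h, 16 rose and 2 fell (IDI1 and ERG25), beside 15.9% that rose. Of the 24 genes, 19 had their lowest value at 0.25 h and 18 had their highest at 14.18 h. Without the array at 9.78 h, 19 of the 24 passed at 9 to 15 h, all higher.

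**Figure D1:**
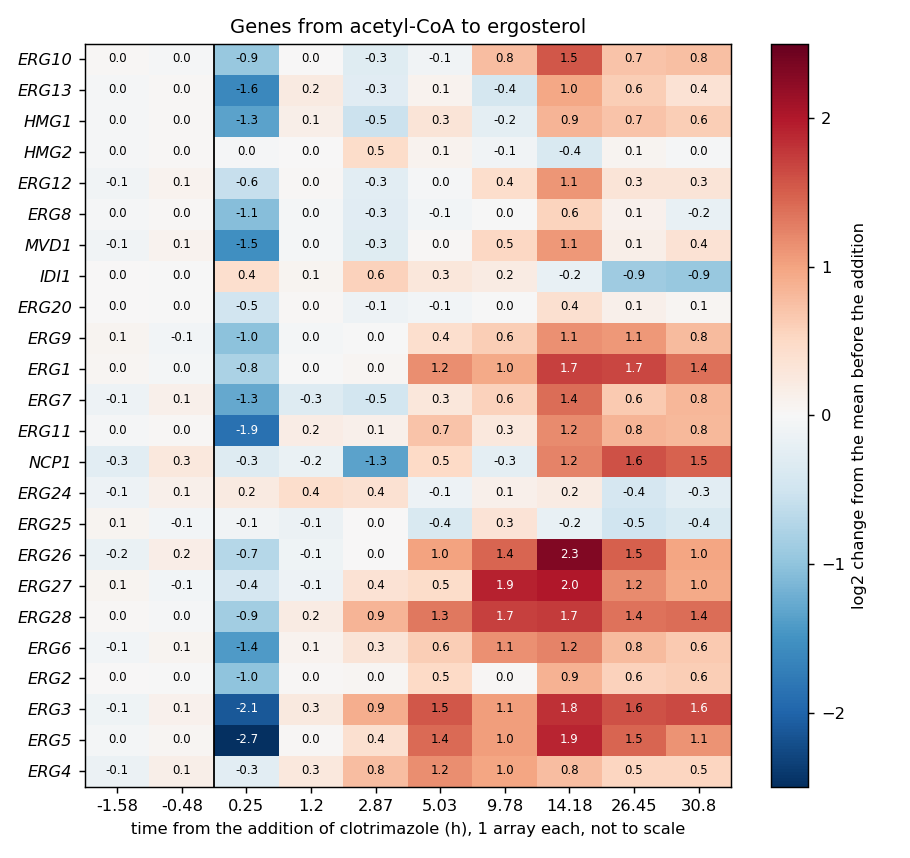
Log2 change (colour and printed value, from the mean of the 2 arrays before the addition) of the 24 sterol path genes, in path order down the page, at each sampled time (horizontal axis in hours, 1 array each, not to scale, a line marks the addition). Most genes are low at 0.25 h (median -0.90), near 0 at 1.2 h (0.02) and high at 14.18 h (1.13), with IDI1 and ERG25 lower on the 2 last arrays.

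The deepest early decreases on the path were those of ERG5, ERG3 and ERG11. ERG5, the sterol C-22 desaturase, a cytochrome P450 like Erg11, had log2 ratios of -0.22 and -0.13 before the onset, and its changes were -2.71, 0.02, 0.40, 1.41, 1.04, 1.90, 1.45 and 1.13 at the 8 times. It was 6.53-fold lower at 0.25 h (SE 0.13 log2 units, limma adjusted p = 3.25e-06) and rose at each of the later windows. ERG3, the C-5 desaturase, stood at -2.11, 0.25, 0.90, 1.55, 1.05, 1.83, 1.58 and 1.64, 4.32-fold lower at 0.25 h. ERG11, the target of the drug, stood at -1.86, 0.18, 0.13, 0.71, 0.26, 1.19, 0.85 and 0.81. All 3 genes were thus lowest on the first array and above the baseline on every later one. ERG6, the sterol methyltransferase, followed them with -1.42 at 0.25 h and 1.24 at 14.18 h, and ERG2, the C-8 isomerase, with -1.01 and 0.88. ERG28, a scaffold of the C-4 demethylation complex, stood at -0.86, 0.20, 0.86, 1.32, 1.71, 1.75, 1.35 and 1.40, and was higher on each array from 2.87 h on.

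At 9 to 15 h the largest increases on the path were those of ERG27 and ERG26, enzymes of C-4 demethylation, and at 26 to 31 h those of ERG3 (1.61), NCP1 (1.54) and ERG1 (1.52). ERG26, the C-3 sterol dehydrogenase, stood at -0.71, -0.12, 0.01, 1.01, 1.45, 2.31, 1.50 and 0.98, which was 4.97-fold higher at 14.18 h. ERG27, the 3-keto sterol reductase, stood at -0.41, -0.13, 0.36, 0.47, 1.92, 2.00, 1.18 and 0.95. Neither passed at 0.25 h (adjusted p = 0.053 and 0.16), and both rose at 9 to 15 h (1.88 ± 0.14 and 1.96 ± 0.12 log2 units, SE). ERG25, the C-4 methyl oxidase that works with both, did not follow them: its changes lay between -0.49 and 0.33 on the 8 arrays, and it fell at 26 to 31 h (-0.44 ± 0.11, adjusted p = 0.014). ERG24, the C-14 reductase that acts just after Erg11, lay between -0.42 and 0.44 and passed in no window. NCP1, the reductase that passes electrons to Erg11, had changes of -1.33 at 2.87 h and -0.25 at 9.78 h, on the arrays that stood apart. It was at 1.24, 1.60 and 1.48 at 14.18, 26.45 and 30.8 h. Of the windows, only that of 26 to 31 h gave a rise that passed (1.54 ± 0.19). The window of 9 to 15 h includes the array at 9.78 h. ERG4, the last reductase of the path, was highest at 5.03 h (1.16).

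The 3 genes from farnesyl diphosphate to lanosterol had a median of -1.02 at 0.25 h and 0.98 at 9 to 15 h, against -0.94 and 0.28 for the 9 genes before them and -0.79 and 1.04 for the 12 after them. ERG1, squalene epoxidase, the first oxygen-dependent step, stood at -0.79, 0.00, 0.04, 1.16, 0.96, 1.72, 1.67 and 1.37. ERG7, the lanosterol synthase, was -1.27 at 0.25 h and 1.39 at 14.18 h, and ERG9, the squalene synthase, was -1.02 and 1.15. All 3 fell on the first array and rose in both late windows. In the mevalonate pathway, 5 of 9 genes fell at 0.25 h: ERG13 (HMG-CoA synthase, -1.62), MVD1 (mevalonate diphosphate decarboxylase, -1.53), HMG1 (HMG-CoA reductase, -1.34), ERG8 (phosphomevalonate kinase, -1.06) and ERG10 (acetoacetyl-CoA thiolase, -0.94). Only ERG10, ERG12 and MVD1 rose at 9 to 15 h, and ERG10, ERG13 and HMG1 at 26 to 31 h. The reductases differed from each other: HMG1 stood at 0.86, 0.71 and 0.62 at 14.18, 26.45 and 30.8 h, while HMG2, the second HMG-CoA reductase, stood at -0.38, 0.07 and -0.03 and passed in no window. IDI1, the isopentenyl diphosphate isomerase, ran the other way, with 0.42 at 0.25 h and -0.90 and -0.95 on the 2 last arrays (-0.92 ± 0.10, adjusted p = 0.00024). ERG20, the farnesyl diphosphate synthase, passed in no window.

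Of 9 regulators of sterol and hypoxic genes, 1 fell at 0.25 h, beside 2.64% of all ORFs that fell. At 9 to 15 h 1 rose and 2 fell, beside 38.8% of all ORFs that passed in either direction. At 26 to 31 h 2 rose and 2 fell, beside 32.6%. UPC2 stood at -0.22, 0.11, -0.27, -0.48, -1.21, -0.99, -1.50 and -1.72 and fell in both late windows (-1.10 ± 0.11 and -1.61 ± 0.11), on the same arrays on which most ERG genes rose. ECM22, its paralogue, lay between 0.00 and 0.35 throughout and passed in no window. HAP1, the heme-dependent activator, rose at 9 to 15 h (0.88 ± 0.11) and 26 to 31 h (0.95 ± 0.11), having lain far below the batch culture before the onset (ratios -1.37 and -1.46). ROX1, the repressor of hypoxic genes, fell at 0.25 h (-1.11 ± 0.16) and again late (-0.93 and -0.79). SUT1, which promotes sterol uptake, rose at 26 to 31 h (0.87 ± 0.13).

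Of 19 genes of sterol transport and esterification none passed at 0.25 h or over 1 to 5 h. At 9 to 15 h 6 rose and 3 fell, beside 38.8% of all ORFs that passed in either direction. At 14.18 h alone 5 were higher and none lower. At 26 to 31 h 8 rose and 3 fell, beside 32.6%. HES1, an oxysterol-binding protein, stood at 2.13, 1.91, 1.30 and 0.64 on the 4 last arrays. ATF2, which acetylates sterols for export, stood at 0.02, 0.05, 0.46, 1.27, 0.72, 1.57, 2.03 and 1.66. Of the sterol acyltransferases, ARE2 rose at 26 to 31 h (1.23 ± 0.14), as did ARE1 (0.87 ± 0.18). ATF2 was within the naming rule for this list, whereas HES1 and ARE2 were chosen after their values were seen. The uptake transporters differed in time: AUS1 was higher at 9.78 h (1.08) but at 0.30, -0.11 and -0.28 on the 3 last arrays, and PDR11 was at 0.72 and 0.41 on the 2 last arrays and between -0.34 and 0.19 before.

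The drug resistance genes had the highest median of the gene lists on the first array. Of 20 genes of the Pdr network, 12 rose at 0.25 h and none fell, with a median of 0.97, beside 1.26% of all ORFs that rose. CIS1 (YLR346C), known as a gene under the control of Pdr1, had ratios of 0.14 and 0.01 before the onset and changes of 4.31, 0.42, 0.49, 0.53, 2.89, 2.73, 0.77 and 0.15. It was 19.8-fold higher at 0.25 h (SE 0.14, adjusted p = 4.81e-07). YGR035C, of unknown function, stood at 4.10, 0.25, 0.73, 1.78, 1.75, 1.26, 0.57 and 0.42, and ICT1, a lysophosphatidic acid acyltransferase, at 3.19, 0.02, 0.06, 0.56, 2.17, 2.26, 0.72 and 0.67. The changes of the 3 genes were large at 0.25 h, small at 1.2 h and large again at 9.78 and 14.18 h.

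The pumps and lipid genes of the network differed in their later course. PDR5, the main azole efflux pump, stood at 2.49, 0.02, -0.10, 0.67, 0.43, 0.95, 0.77 and 0.72, a 5.60-fold increase on the first array. SNQ2, a second pump, rose at 0.25 h (1.70) and lay between -0.19 and 0.39 on all later arrays. PDR16, a phosphatidylinositol transfer protein that affects azole sensitivity, was at 2.01 at 0.25 h and between -0.12 and 0.45 afterwards. RSB1, a long-chain base translocase, was high on the later arrays as well, at 2.49, -0.25, 0.00, 1.04, 1.35, 1.79, 0.67 and -0.12. TPO1, a polyamine exporter, rose at 0.25 h (1.39) and most at 26.45 and 30.8 h (1.84 and 1.90), while PDR10 and PDR12, which did not pass at 0.25 h (0.13 and -0.13), rose only at 26 to 31 h (1.21 ± 0.11 and 1.20 ± 0.11). PDR1 and PDR3 themselves had changes of 0.23 and 0.24 at 0.25 h that did not pass. The rule named RTA1 as well, which resembles RSB1 and lies in a chromosome VII run described below: its changes were 0.88, 0.18, 0.21, 0.40, 2.52, 2.70, 2.00 and 0.59. Over the list, 11 genes rose and 2 (PDR3 and FLR1) fell at 9 to 15 h, beside 18.5% and 20.3% of all ORFs. At 26 to 31 h 11 rose and none fell, beside 15.9% and 16.6%. Without the array at 14.18 h, 8 rose and none fell at 9.78 h, and without that at 9.78 h, 9 rose and 2 fell.

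**Figure D2:**
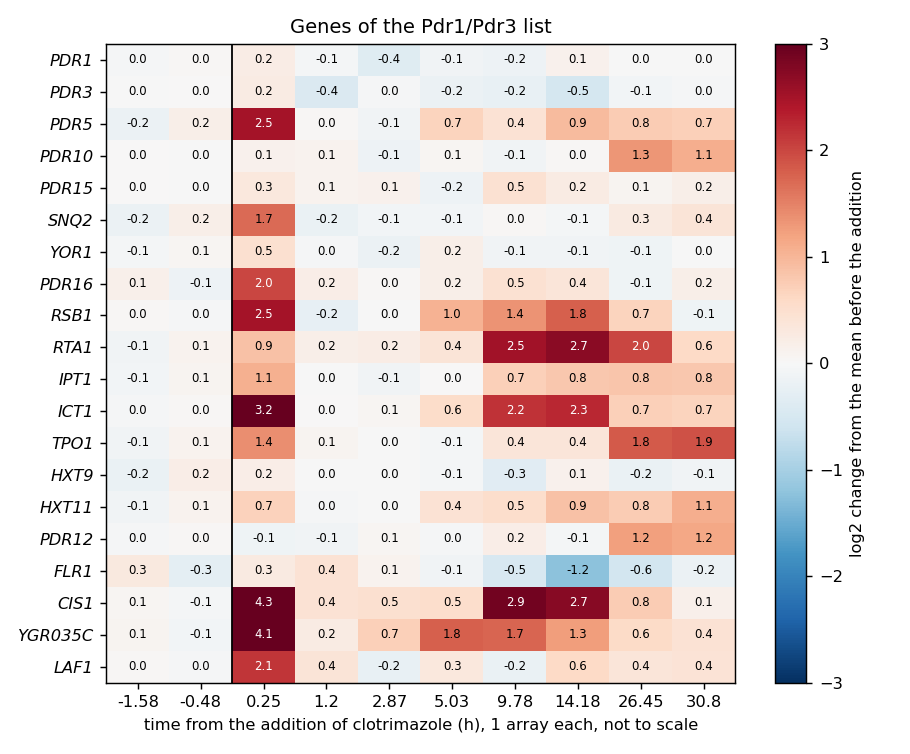
Log2 change (colour, which stops at 3, and printed value, from the mean of the 2 arrays before the addition) of the 20 Pdr genes (rows) at each sampled time (horizontal axis in hours, 1 array each, not to scale, a line marks the addition). CIS1 (4.31), YGR035C (4.10) and ICT1 (3.19) are highest at 0.25 h and high again at 9.78 h, whereas PDR10 and PDR12 are high on the 2 last arrays alone.

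The largest increase of any gene on the first array was outside the list. GRE2, a methylglyoxal reductase known as a stress gene, stood at 5.34, 0.59, 0.04, 1.09, 3.64, 4.01, 1.51 and 1.56, a 40.6-fold increase at 0.25 h (SE 0.22, adjusted p = 1.13e-06). ATG40, a receptor of autophagy of the endoplasmic reticulum whose gene lies beside PDR5, followed with 3.63, 0.27, 0.35, 1.11, 2.78, 2.55, 1.01 and 0.44. The stress response as a whole did not go with GRE2 at that time. Of the 253 genes in the study's stress module, 9 rose and 2 fell at 0.25 h, beside 1.26% and 2.64% of all ORFs. The median of the module was 0.08. HSP12, a general stress gene, rose (1.05 ± 0.17), but TMA10, which led the later stress genes, was at -0.72 (adjusted p = 0.11). LAC1, a ceramide synthase, was another early riser (1.54) and fell at 9 to 15 h (-1.11 ± 0.12).

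After ERG5, the largest decreases of the first array were OLE1 (the fatty acid desaturase, -2.65), CYC1 (cytochrome c, -2.42), CYB5 (cytochrome b5, which donates electrons to sterol and lipid desaturation, -2.31) and LST7 (of nutrient permease sorting, -2.29). OLE1 stood at -2.65, -0.40, -1.15, -0.12, -0.84, 0.41, 0.13 and 0.19. CYB5 took the course of the ERG genes, at -2.31, -0.18, 0.59, 0.81, 0.97, 0.96, 1.29 and 1.20, and CYC1 did not, being low again at 9.78 and 14.18 h (-1.19 and -1.46). SCM4, a mitochondrial outer membrane protein, also resembled the ERG genes, at -1.85, 0.16, 0.93, 1.40, 2.12, 2.64, 2.07 and 1.76. Of the 50 genes in the oxidative phosphorylation module, 16 fell and 1 rose at 0.25 h, beside 2.64% and 1.26% of all ORFs. The median of the module was -0.35 at 0.25 h and 0.05 at 1.2 h. Examples chosen after their values were seen are RIP1 (-1.95) and CYT1 (-1.93) of the bc1 complex and the external NADH dehydrogenase NDE1 (-1.96).

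Some genes of an iron and heme list were lower for longer. Of its 24 genes, 4 fell at 0.25 h, beside 2.64% of all ORFs that fell. They were HMX1 (heme oxygenase, -2.01), FTR1 (iron permease, -1.78), FET3 (its ferroxidase, -1.10) and SIT1 (a siderophore transporter, -0.78). FTR1 stood at -1.78, -1.11, -0.78, -0.53, -1.50, -1.35, 0.06 and 0.26, below the baseline on the first 6 arrays. FET3 was lower on all 8 arrays, between -0.47 and -2.18, and was among the 5 largest decreases at 9 to 15 h (-2.06 ± 0.12). Over the list, 9 fell and 2 rose at 9 to 15 h (8 and 2 at 14.18 h alone), beside 20.3% and 18.5% of all ORFs. At 26 to 31 h 7 fell and 1 rose, beside 16.6% and 15.9%.

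The SD of the change over all ORFs was 0.35 at 0.25 h, 0.20 at 1.2 h, 0.37 at 2.87 h (an array that stood apart), 0.24 at 5.03 h and 0.60 at 9.78 h. Over 1.2 to 5.03 h the increases led with TMA10 (0.92 ± 0.16), YGR035C (0.92 ± 0.11), ERG3 (0.90 ± 0.11), SCM4 (0.83 ± 0.09) and ERG28 (0.79 ± 0.10), and each was higher at 5.03 h than at 1.2 h. The decreases led with PDC6 (a pyruvate decarboxylase, -1.01), VAS1 (-0.90), MET17 (of sulfur amino acid synthesis, -0.89), FTR1 (-0.81) and FUI1 (the uridine permease, -0.77). Of these, PDC6, VAS1 and FUI1 took much of their value from the array at 2.87 h (-2.17, -1.91 and -1.40). MET17 (-0.44, -0.99 and -1.23) and FTR1 were below the baseline on all 3 arrays. The 37 calls of this window rested on few arrays: none of them held when either array before the onset was left out, and 183 genes passed without the array at 1.2 h.

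**Figure D3:**
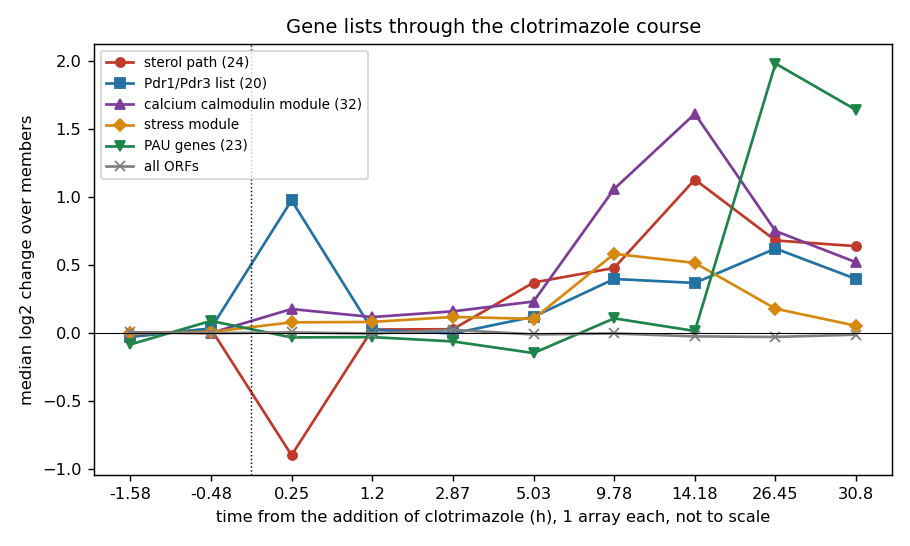
Median log2 change over the members of each gene list (vertical axis, from the mean of the 2 arrays before the addition, 1 line per list) at each sampled time (horizontal axis in hours, 1 array each, not to scale, a dotted line marks the addition). The Pdr list is highest at 0.25 h (0.97), the sterol path at 14.18 h (1.13) and the PAU genes at 26.45 h (1.98), while all ORFs stay near 0.

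At 9.78 and 14.18 h calcium and stress genes rose, beside the sterol genes, and ribosomal biogenesis and late cell cycle genes fell. Of the 32 genes in the study's calcium calmodulin module, 26 rose and none fell, beside 18.5% of all ORFs that rose, with a median of 1.06 at 9.78 h and 1.61 at 14.18 h. In the list of calcineurin and Crz1 genes, which respond to calcium through the phosphatase calcineurin, 10 of 17 rose and 1 fell. At 14.18 h alone 27 genes of the module and 10 of the list were higher and none lower. RCN2, a calcineurin regulator, stood at 0.22, 0.00, 0.03, 0.10, 2.43, 2.67, 1.23 and 0.53, within 0.22 units of the baseline until 5.03 h. RCN1, the other regulator, was at 1.89 and 1.77 and CMK2, a calmodulin-dependent kinase, at 2.65 and 2.29 on the 2 arrays. These 3 were chosen after their values were seen. CCH1, a calcium channel subunit on the list, lies in the chromosome VII run. 

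The 5 largest increases at 9 to 15 h were SLI1, TMA10, GRE2, FHN1 and PBI1. TMA10, a ribosome-associated protein, stood at -0.72, 0.53, 0.81, 1.42, 3.80, 3.98, 3.46 and 2.79, 15.8-fold higher at 14.18 h. FHN1, a membrane protein of the eisosome family, was at 0.80 at 5.03 h and 3.55, 3.36, 1.89 and 1.29 afterwards, and PBI1, of unknown function, at 0.41 and then 3.47, 3.27, 2.32 and 0.99. All 3 were far higher at 9.78 h than at 5.03 h and past their peak at 30.8 h. SLI1, an N-acetyltransferase that protects against a sphingolipid inhibitor, is less certain and lies in the chromosome VII run described below. Its ratio was 3.01 on the first array before the onset and exactly 0.00 on the second, so that its changes of 4.24 and 4.11 rest on the mean of these unlike values, and it did not pass under robust moderation (adjusted p = 0.0699).

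Of 21 sphingolipid genes 5 rose and 7 fell at 9 to 15 h, beside 18.5% and 20.3% of all ORFs, and 7 were higher and 6 lower at 14.18 h alone. The regulators ORM2 and YPK1 rose (1.14 ± 0.11 and 1.11 ± 0.11), as did the mannosyltransferase subunits SUR1 (0.78 ± 0.12) and CSG2 (0.70 ± 0.12), whereas the ceramide synthases LAG1 (-0.99 ± 0.11) and LAC1 fell. Of 14 phospholipid genes 4 rose and none fell, and 5 were higher and none lower at 14.18 h alone. INO1, the inositol phosphate synthase, stood at 1.46, 1.64, 1.47 and 1.24 on the 4 last arrays, and OPI3, a methyltransferase of phosphatidylcholine synthesis, at 1.32, 1.10, 0.27 and 0.28. OPI1, the repressor of these genes, fell at 26 to 31 h (-0.78 ± 0.12). In that window 1 gene of the list rose and 4 fell, beside 15.9% and 16.6% of all ORFs. ELO1, a fatty acid elongase, turned round between the late windows, at -1.60 and -1.53 and then 0.87 and 1.41. Of 10 fatty acid genes 2 rose and 4 fell at 9 to 15 h, as at 14.18 h alone. FAA4, among those that fell, was lowest on the arrays at 2.87 and 9.78 h (-1.61 and -2.20). At 26 to 31 h 3 fatty acid genes rose and none fell, beside 15.9% and 16.6% of all ORFs.

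Of 14 genes of protein folding in the endoplasmic reticulum and of the unfolded protein response 6 rose and 1 (HAC1) fell at 9 to 15 h, beside 18.5% and 20.3% of all ORFs, with a median of 0.31. At 14.18 h alone 5 were higher and 1 lower, and HAC1 was at 0.17. EUG1, a protein disulfide isomerase, stood at 1.02, 1.01, 0.78 and 0.82 on the 4 last arrays and SCJ1, a DnaJ homologue, at 0.78, 0.83, 0.81 and 1.04, whereas the BiP gene KAR2 lay between -0.26 and 0.13 on all 8. In the cell wall list 4 of 22 rose and 4 fell, near the shares of all ORFs, and 4 were higher and 4 lower at 14.18 h alone. The aspartic protease YPS1 was highest at 14.18 h (2.06), the mannoprotein gene CWP1 stood at -1.04 and -2.28 and then at 0.95 and 1.15 on the 4 last arrays, and the glucan synthase FKS1 fell at 9 to 15 h (-1.18 ± 0.13). CWP1 and the transglycosylase UTR2 (-1.10, -1.31, 0.75 and 0.87) thus crossed the baseline between 14.18 and 26.45 h.

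Of 9 genes of histidine synthesis, uptake and control none passed at 0.25 h (median -0.35) or over 1 to 5 h. At 9 to 15 h 2 fell and none rose, beside 38.8% of all ORFs that passed in either direction. At 26 to 31 h 1 rose and 2 fell, beside 32.6%. GCN4, the activator of amino acid synthesis, lay between -0.12 and 0.05 on all 8 arrays. HIS4 was low at 9.78 h (-1.54) and at -0.06 at 14.18 h, and HIS6 rose at 26 to 31 h (0.94 ± 0.13). In the larger amino acid module of 291 genes, 39 fell and 5 rose at 0.25 h (median -0.21), beside 2.64% and 1.26% of all ORFs. At 26 to 31 h 86 rose and 33 fell, beside 15.9% and 16.6%.

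The stress module, which was near 0 on the first 4 arrays (median 0.08 to 0.12), had medians of 0.58 at 9.78 h and 0.51 at 14.18 h. Of its 253 genes 151 rose and 20 fell at 9 to 15 h, beside 18.5% and 20.3% of all ORFs. Of the 231 genes in the ribosomal biogenesis module 144 fell and 1 rose, with medians of -0.52 and -0.38 on the 2 arrays. Of 117 ribosomal protein genes 15 fell and none rose, a smaller share than the 20.3% of all ORFs that fell. Genes of late cell cycle fell as well, 39 of 56 in the G2-M module and 37 of 62 in the M-G1 module. The 5 largest decreases included DSE1 and DSE2 (daughter-cell genes, of which Dse2 is a glucanase of cell separation) and SUN4 (of septation). DSE2 stood at -1.04 and -3.12, DSE1 at -1.81 and -2.63 and SUN4 at -2.55 and -1.79 on the 2 arrays, and all 3 were at -0.56 to 0.06 at 30.8 h. In RNA of a whole culture, fewer cells in a phase and less RNA per cell cannot be told apart. PHO3, an acid phosphatase, was the largest decrease (-2.40 ± 0.15). Without the array at 9.78 h, 96 ribosomal biogenesis genes and 36 G2-M and 33 M-G1 genes were lower at 14.18 h, and 127 stress genes were higher.

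At 26.45 and 30.8 h the medians of the stress and ribosomal biogenesis modules were closer to the baseline than at 9.78 and 14.18 h. The stress module had medians of 0.18 and 0.05, with 61 of its genes higher and 32 lower, and of the ribosomal biogenesis genes 19 were higher and 26 lower. The ribosomal biogenesis counts rested on single arrays, with 18 higher and 7 lower without the array at 26.45 h and 5 higher and 20 lower without that at 30.8 h. In the G2-M module 3 of 56 were higher and 21 lower (medians -0.35 and -0.09 on the 2 arrays), and in the G1 module 21 of 279 were higher and 98 lower, beside 16.6% of all ORFs that were lower. The sterol path stayed above the baseline (0.68 and 0.64), and genes of anaerobic growth rose. Of 23 PAU genes, which encode cell wall mannoproteins made under anaerobic conditions, 18 rose and none fell, beside 15.9% of all ORFs that rose, with medians of 1.98 at 26.45 h and 1.64 at 30.8 h, against 0.11 at 9.78 h and 0.01 at 14.18 h. PAU13, PAU12 and PAU11 were among the 5 largest increases of the window. PAU13 stood at -0.21, -0.14, 0.12, -0.15, 1.34, 0.89, 3.60 and 3.28. PAU12 was at 3.56 and 3.30, and PAU11 at 3.54 and 3.23, on the 2 last arrays. PAU genes are nearly identical in sequence, and spots made from whole ORFs can bind the RNA of several members, so the count of 18 is not 18 separate genes. PAU24 (0.30 and 0.30), PAU8 (0.19 and 0.15) and PAU7 (0.03 and 0.12) did not pass.

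Other hypoxic genes were less uniform. Of 17 listed genes 8 rose and none fell at 26 to 31 h, beside 15.9% of all ORFs that rose. TIR2 and TIR4, cell wall mannoproteins related to the PAU family, were at 2.42 and 2.30 and at 1.51 and 1.65, and DAN4 was at 1.31 and 1.12. HEM13, the oxygen-dependent coproporphyrinogen oxidase, was at 1.35 and 1.53. DAN1 (-0.06 and 0.30), ANB1 (-0.13 and -0.28) and HMG2, which are also genes of low oxygen, did not pass. These hypoxic genes were named after their values were seen, apart from OLE1, TIR4 and COX5B (0.43 ± 0.15, adjusted p = 0.057). The rule also held TIR3 and AAC3, which did not pass over 1 to 5 h (-0.40 and -0.19).

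The largest increase at 26 to 31 h was YLR162W, an ORF of unknown function, at 5.14 and 4.41. It had low ratios before the onset (-3.90 and -3.15), and on the earlier arrays it scattered between -2.20 and 0.85. TMA10 completed the 5 largest increases (3.12 ± 0.17). Genes of the mating types also changed in this window, 5 of 10 higher and 1 lower, beside 15.9% and 16.6% of all ORFs. MFA1 and MFA2, the a-factor genes, stood at 2.64 and 2.93 and at 1.86 and 2.12 on the 2 last arrays, AGA2 at 1.22 and 1.25, STE2 at 0.92 and 0.90 and STE6 at 0.78 and 0.81. All 5 had lain below the batch culture before the onset, MFA1 by -3.46 and -3.34. STE3, the alpha-cell receptor gene, fell (-1.23 ± 0.12), having been above the batch culture at 1.36 and 1.53.

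The 5 largest decreases at 26 to 31 h lay within 1 run of ORFs on chromosome VII. YCH1 (a phosphatase, -2.54 and -2.95), MVB12 (of endosomal sorting, -1.42 and -2.76), GPI1 (of GPI anchor synthesis, -1.60 and -2.30), YPP1 (of endocytosis, -1.31 and -2.45) and PCT1 (of phosphatidylcholine synthesis, -1.29 and -2.34) belong to a run of 28 annotated ORFs from CRH1 to CCH1. The run included HIP1, the histidine permease. Before the onset its median ratio was 2.51 and 2.62, and it was 2.41, 2.65, 2.47, 2.61, 2.18 and 2.56 on the first 6 arrays after it, 1.86 at 26.45 h and 1.02 at 30.8 h. The ORFs on either side had medians between -0.03 and 0.27. MVB12 had ratios of 3.34 and 3.17 before the onset and 1.84 and 0.49 on the 2 last arrays, and HIP1 of 1.94 and 1.96, against 1.91 and 1.51. TDH3 was the exception in the run, at 0.36 and 0.16 before the onset and 0.09 and 0.14 on the 2 last arrays. Of the 28 ORFs, 18 fell and 1 (RTA1) rose at 26 to 31 h, and 15 of the 50 largest decreases of the window lay there. Outside the run, 975 ORFs rose and 1002 fell in this window. The run had medians of 2.06 to 3.33 in the heat shock, NaCl and histidine courses and of 0.47 to 1.26 in the DTT course. These ratios do not tell the number of gene copies from the amount of RNA per copy, and the run was noticed after its values were seen.

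**Figure D4:**
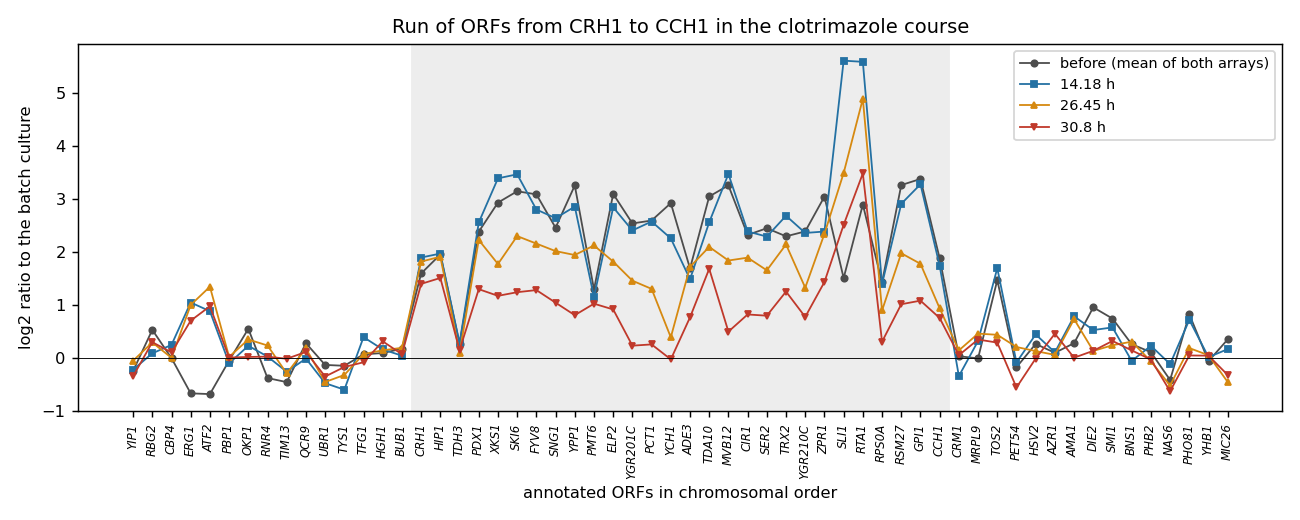
Log2 ratio of chemostat to batch culture RNA (vertical axis) of annotated ORFs in chromosomal order (horizontal axis), with the run from CRH1 to CCH1 shaded, before the addition (mean of both arrays) and at 14.18, 26.45 and 30.8 h. The run is high before the addition (median 2.51 and 2.62) and lower at 30.8 h (1.02), while most ORFs on either side lie near 0.

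The clotrimazole course was then set against the other histidine-limited courses, to ask which of these changes it alone showed. Each course gave 1 value per gene and window, and limma compared clotrimazole with the mean of the others, with the spread between those as the error. The courses were not sampled at the same times within a window. DTT had no array before its onset and took the mean of the heat shock, NaCl and histidine baselines. On the first array 3 genes were higher than in the 4 other courses (0.0489%) and none lower, with 143 at an unadjusted p under 0.05. They were YGR035C (4.10 with clotrimazole, against -0.51 with DTT, -0.82 with heat, -0.72 with NaCl and 0.10 with histidine), YPL088W, a putative aryl alcohol dehydrogenase (3.02, against -0.17, -0.27, -0.09 and 0.00), and YOL150C, an ORF without an entry in the annotation (3.56, against -0.09, 0.01, -0.15 and 0.25), which was outside the naming rule and neighbours GRE2 by its name. GRE2 stood at 5.34 with clotrimazole and at 5.89 with NaCl. CIS1 differed by 3.55 ± 0.36 and did not pass (adjusted p = 0.077). No call of this comparison stood when DTT, heat shock or NaCl was left out, and 1 gene passed without the histidine course.

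Early values of sterol genes below the baseline were also measured with DTT. The median of the 24 genes on the first array was -0.90 with clotrimazole, against -0.87 with DTT, -0.31 with heat, -0.30 with NaCl and 0.04 with histidine, and none of the 24 differed at the threshold. ERG5 was at -2.71 with clotrimazole, -2.99 with DTT and -1.76 with NaCl, OLE1 at -2.65, -1.13 and -2.76 and CYB5 at -2.31, -3.57 and -1.72. By contrast, the stress module had a median of 0.08 with clotrimazole, against 0.91 with DTT, 1.17 with heat, 1.55 with NaCl and 0.05 with histidine, and the Pdr list 0.97, against 0.03, 0.14, 0.00 and 0.05. In the window of 1 to 6 h no gene differed, with 69 at an unadjusted p under 0.05.

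At 9 to 18 h, 135 genes were higher (2.2%) and 118 lower (1.92%) than in the 4 other courses, or 4.13% in all. The DTT and NaCl values in this window came from a single array each, at 10.72 and 17.15 h. Of the sterol path, 9 of 24 were higher and none lower, and the median of the 24 was 0.79 with clotrimazole, against 0.11 with DTT, 0.05 with heat and -0.03 with histidine, and a value within 0.01 of 0 with NaCl. ERG26 was at 1.88, against -0.04, -0.23, -0.25 and 0.05, and ERG27 at 1.96, against 0.13, 0.07, -0.04 and -0.05, so that the course stood clear of the 4 others. ERG11 differed by 0.65 ± 0.18 and did not pass (adjusted p = 0.091). Of the calcium calmodulin module 14 of 32 were higher, and of the Pdr list 5 of 20. FHN1 (3.46, against -0.50, -0.05, 0.00 and -0.10) and PBI1 (3.37, against -0.22, -0.11, -0.14 and 0.08) gave the largest differences after SLI1. The count rested on which courses were compared: it was 1310 without DTT, 63 without histidine, 2 without heat shock and 0 without NaCl. Without the array at 9.78 h it was 177, with 128 higher and 49 lower.

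At 18 to 31 h the NaCl course had no array. The heat shock and histidine values came from a single array each, at 23.62 and 22.12 h. DTT had arrays at 19.32 and 28.62 h. In this window 25 genes were higher (0.408%) and 3 lower (0.0489%) than in the 3 others, or 0.457% in all. Of the 23 PAU genes 12 were higher and none lower, with a median of 1.86 for clotrimazole, against 0.22 for DTT, -0.11 for heat and 0.12 for histidine. PAU12 was at 3.43, against 0.07, -0.25 and -0.29, and TIR2 at 2.36, against 0.26, -0.08 and 0.16. Of the sterol path ERG1 (1.52, against 0.10, -0.13 and -0.15) and ERG3 (1.61, against 0.18, -0.05 and -0.18) were higher, and the median of the path was 0.69, against 0.11, 0.00 and -0.01. YLR162W did not pass (adjusted p = 0.19), being also high with DTT (2.46). This count was 611 without DTT, 52 without heat shock and 0 without histidine.

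**Figure D5:**
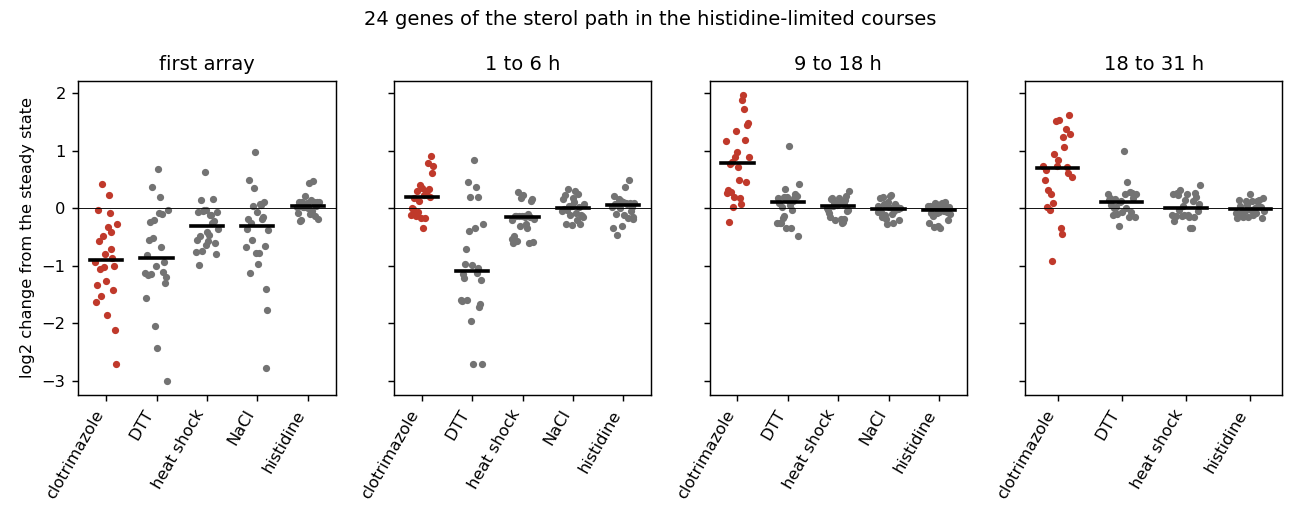
Log2 change from the steady state (vertical axis) of the 24 sterol path genes in each histidine-limited course, 1 panel per window of time, with a point per gene and a bar at the median. On the first array the clotrimazole and DTT medians are -0.90 and -0.87, and at 9 to 18 h the clotrimazole median (0.79) lies above those of the other courses (-0.03 to 0.11).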

How the data were processed

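The deposited values were log2 ratios (Cy5 over Cy3), which the authors made from arrays of PCR products of yeast ORFs, labelled by the amino-allyl method. The methods state that they were corrected for technical biases and normalized. The method used is not given in the sources used here, and without intensities the depth of a spot is unknown. The values were used as deposited. Changes from the 2 arrays before the onset were fitted with limma 3.58.1 in R 4.3.3 (1 mean per group, moderated, prior 6.35 degrees of freedom) and tested on simulated data. Tables and figures were made with Python 3.11.15. Gene names came from the RefSeq table of the R64 assembly. The text names the 5 largest increases and decreases per window that kept their sign on every array, the sterol path, and up to 5 members of each other list by their change at 1 to 5 h. Names outside this rule were chosen after their values were seen. The members and the lists were chosen with earlier results of these data known, and the comparison with other courses outside 1 to 6 h was added after their values were seen. The stress and other modules were the study's. A planned count of promoter motifs was not made. Alternatives were median centring, exact zeros (20 to 46 per array) as missing, another source of spread, another baseline, robust moderation and leaving out single arrays or courses.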

Additional observations from a re-analysis of the deposited data

Results flagged for a closer look

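Results stand here because clotrimazole differed from the mean of the other histidine-limited courses by a test of the difference itself (limma, Benjamini-Hochberg over 6132 ORFs). Each course is 1 culture, sampled at times of its own. The windows other than 1 to 6 h were chosen after the data were seen.

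On the first array 3 genes differed, of which YGR035C (4.59 log2 units) and YPL088W (3.16) are named. At 9 to 18 h 253 genes differed. The largest positive differences were SLI1 (4.27), FHN1 (3.62), PBI1 (3.47), GRE2 (3.46) and DIA1 (3.12), the last a gene of invasive growth. The largest negative ones were PHO3 (-2.19), SUN4 (-2.12), HCM1 (-1.94, a cell cycle transcription factor), FAA3 (-1.90, an acyl-CoA synthetase) and SRL1 (-1.88, a cell wall protein). SLI1 lies in the chromosome VII run, whose median change in this window was -1.40 with DTT, from the borrowed baseline. HCM1 and FAA3 were no longer past the threshold without the array at 9.78 h (adjusted p = 0.056 and 0.064), nor SLI1 with exact zeros as missing (adjusted p = 0.051). Without heat shock 2 genes passed in all and without NaCl none, with 253 in the full comparison. On the sterol path the differences were ERG26 (2.00), ERG27 (1.93), ERG28 (1.69), ERG5 (1.65), ERG1 (1.55), ERG3 (1.45), ERG10 (1.23), ERG6 (1.09) and ERG7 (0.88), of which ERG7 did not pass without the array at 14.18 h (adjusted p = 0.12).

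At 18 to 31 h 28 genes differed. They included PAU12 (3.59), PAU13 (3.43), PAU11 (3.38), PAU4 (2.86), TMA10 (2.85), ERG3 (1.63) and ERG1 (1.58) on the positive side, and ZRT1 (-1.59, a zinc transporter) and TSR3 (-1.51, of ribosomal RNA processing) on the negative side. Without the array at 26.45 h TMA10, ZRT1, TSR3, ERG1 and ERG3 did not pass (adjusted p = 0.061 to 0.066), and ZRT1 did not pass without that at 30.8 h either (adjusted p = 0.051).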

How the results depend on the processing

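Of 71 alternative counts of genes 43 stayed within 1.5 times the main count, and of 975 values of single genes 832 kept their direction and side of the threshold and 143 lost the call. No called value changed sign. Of 304 list medians 86 moved by more than the SD between repeat arrays, and of 280 counts of list members 57 moved by over 1.5 times, among them the ribosomal biogenesis genes at 26 to 31 h. Median centring turned the split of that window to 1027 higher and 960 lower, against 976 higher and 1020 lower. With all 7 arrays before an onset as the baseline, counts were 90 on the first array, 8 at 1 to 5 h and 911 at 26 to 31 h, against 239, 37 and 1996. At 1 to 5 h, median centring gave 71 calls, zeros as missing 65 and robust moderation 85. Leaving out 1 array at a time gave 130 to 151 on the first array, 1 to 183 at 1 to 5 h, 1703 to 2295 at 9 to 15 h and 1392 to 1675 at 26 to 31 h. In the comparison with other courses, leaving out 1 course or array gave 0 to 1 on the first array, 0 to 1310 at 9 to 18 h (693 without the array at 14.18 h) and 0 to 611 at 18 to 31 h (11 without the array at 26.45 h), and with all other courses that had arrays in the window the counts were 1 on the first array and 70 at 9 to 18 h. The causes were not tested. No paired analysis was possible because each time after the onset has 1 array and replicate numbers only name the arrays before the onset. The number of arrays limits the precision, and intensities were not used.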
